A study of Mus musculus with 2 samples.

Results

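The heat shock proteins and chaperones described here are 10 named genes of the 31053 features counted in 2 mouse lung libraries. They were chosen by symbol, with their levels in these libraries already known, and all 10 were found in both libraries. Of these, 6 are inducible members (Hspa1a, Hspa1b, Dnajb1, Hsph1, Hspb1 and Hsp90aa1), 3 are constitutive cytosolic members (Hspa8, Hsp90ab1 and Dnaja1), and Hspa5 works in the endoplasmic reticulum (ER). The grouping into inducible and constitutive follows general knowledge of these genes and not the values below.

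Chaperones bind unfolded or partly folded proteins and keep them from aggregating. HSP70 proteins do so in cycles of ATP hydrolysis that are started by J-domain proteins of the HSP40 family and reset by nucleotide exchange factors of the HSP110 family, while HSP90 acts later on folded clients such as kinases and receptors, and small heat shock proteins hold clients without ATP. Heat shock factor 1 switches on the inducible genes when proteins misfold, also during enzymatic or mechanical handling of tissue, and the unfolded protein response switches on the ER chaperones. Immediate-early genes such as Fos, Jun and Egr1 respond within minutes to the same kind of handling.

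Lung cells of C57/B6 mice of 2 to 4 months were profiled by droplet single-cell RNA sequencing from 1 animal group in normoxia and from 1 group kept in hypoxia for 3 weeks at 10% oxygen. The lobes were flushed of blood, digested with enzymes in a mechanical dissociator, and depleted of CD45+ and CD326+ cells (leukocytes and epithelium) on magnetic beads, in both groups alike. Each condition was 1 library, and the labels do not give how many animals a library holds. The comparison between the libraries therefore carries no test, and effects of hypoxia cannot be told apart from effects of animal, dissociation or library preparation.

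The normoxia library held 2223 barcodes and 7630683 unique molecular identifiers (UMIs, each standing for 1 captured transcript), and the hypoxia library held 809 barcodes and 2685345 UMIs. Cells with between 200 and 4000 genes and no more than 5% of UMIs from mitochondria were kept, 1348 and 689 in number, with a median of 3453 and 2224 UMIs. The mitochondrial limit removed 37.6% of normoxia and 13.2% of hypoxia barcodes, and 1 barcode occurred in both libraries. Cells were clustered without the members and named from marker genes. The endothelial (EC)-like class held 795 normoxia and 569 hypoxia cells and had UMIs of 12 of 12 EC markers in both libraries, which summed to 19293 UMIs per 1000000 in normoxia and 18048 in hypoxia. The fibroblast-like class held 189 and 35 cells. The libraries filled different clusters of these classes. EC-like clusters led by Ntrk2, Gm26870 and Trp53inp2 held 179, 117 and 76 hypoxia cells but 5, 13 and 6 normoxia cells, and the 7 EC-like clusters with 10 or more cells from both libraries held 569 of 795 normoxia cells (71.6%) and 303 of 569 hypoxia cells (53.3%). Of fibroblast-like cells, 1 such cluster, led by Myh10, held 92 of 189 and 30 of 35. Values of the members within these clusters stand beside their results for the class. After the depletion, 46 and 12 alveolar type 1 (AT1)-like cells and a leukocyte cluster led by Igkc, with 19 and 3 cells, were present. Levels are given as CPM, the UMIs of a gene per 1000000 UMIs of the class, from 3′ end counts that do not scale with transcript length. All intervals are 95% intervals and cover counting error only.

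Hspa1a and Hspa1b encode nearly identical stress-induced cytosolic HSP70 proteins. They lie close together on chromosome 17 of GRCm38, on the minus strand, each as 1 exon (chr17:34969190-34972156 and chr17:34956436-34959238). Their coding sequences were 99.5% identical over 1926 aligned bases and their 3′ untranslated regions 49.4% identical over 902. How the reads were split between them was not tested, so that each is given alone and as their sum. The stretches below are the 150 bases before the RefSeq transcription start of Hspa1a, Hspa1b, Hspb1 and Hspa5, on GRCm38.p6 and written along the gene's strand. They are shown because the first 3 carry the recognition letters of heat shock factor and Hspa5 those of the unfolded protein response. Capitals mark the motif GAANNTTC, a pair of heat shock units, in the first 3 sequences and the motif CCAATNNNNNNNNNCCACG, the ER stress element, in the last.
Hspa1a, chr17:34972157-34972306, minus strand: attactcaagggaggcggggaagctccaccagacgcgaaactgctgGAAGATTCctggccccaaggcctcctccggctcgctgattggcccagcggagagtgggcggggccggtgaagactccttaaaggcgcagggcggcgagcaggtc
Hspa1b, chr17:34959239-34959388, minus strand: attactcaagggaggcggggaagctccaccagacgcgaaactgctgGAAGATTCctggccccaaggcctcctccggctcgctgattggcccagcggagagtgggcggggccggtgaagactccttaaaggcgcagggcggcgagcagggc
Hspb1, chr5:135887769-135887918, plus strand: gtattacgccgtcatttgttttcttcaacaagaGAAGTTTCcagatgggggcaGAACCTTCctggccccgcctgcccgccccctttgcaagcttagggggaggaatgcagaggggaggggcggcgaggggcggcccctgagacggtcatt
Hspa5, chr2:34771940-34772089, plus strand: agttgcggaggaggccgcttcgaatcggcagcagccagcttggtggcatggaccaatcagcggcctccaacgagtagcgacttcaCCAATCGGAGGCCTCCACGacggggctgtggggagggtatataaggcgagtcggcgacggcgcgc

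The Hspa1a and Hspa1b stretches differed at 1 of 150 bases, and in both the heat shock pair began 104 bases before the start. Hspb1 held the pair at 117 and at 97 bases before its start. Promoter windows of 250 bases before to 50 after the start were given for 7 members, and GAANNTTC, searched on both strands, stood in those of 5 (Hspa1a, Hspa1b, Hspb1, Hsph1 and Dnaja1), against 7.86% of all 32851 windows and 9.04% of 27025 genes. The longer motif GAANNTTCNNGAA, which contains the pair, was in 0.603% of windows and among the members in Hsph1, 36 bases after the first of its starts and 15 after the other. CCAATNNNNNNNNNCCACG was in 0.119% of windows and among the members in Hspa5, 65 bases before its start. Dnajb1 windows held none of these letters. A match describes the letters in these windows only.

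Hspa8, Hsp90ab1 and Dnaja1, the constitutive members, were all higher in the hypoxia library in EC-like cells. Hspa8 (chr9:40800984-40810087), the HSP70 that unstressed cells make, had 1175 CPM in normoxia (interval 1140 to 1212) and 1811 in hypoxia (1754 to 1871). Hsp90ab1 (chr17:45567775-45573271), the constitutive HSP90, had 1653 (1611 to 1697) and 2740 (2669 to 2813). Dnaja1 (chr4:40722150-40737149), a J protein that works with Hspa8, had 680 (653 to 708) and 976 (934 to 1020). The hypoxia over normoxia ratio was 1.54 (1.47 to 1.61) for Hspa8 and 1.66 (1.60 to 1.72) for Hsp90ab1. For Dnaja1 it was 1.44 (1.35 to 1.52). Summed, the constitutive members went from 3508 to 5528 CPM, a ratio of 1.58 (1.54 to 1.62). Over the 7 clusters that both libraries filled, the ratios were 1.59 for Hspa8, 1.48 for Hsp90ab1, 1.38 for Dnaja1 and 1.5 (1.44 to 1.55) for their sum.

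Hspa1a and Hspa1b had nearly the same summed level in both libraries. Hspa1a had 892 CPM in normoxia (861 to 924) and 960 in hypoxia (918 to 1004), with a ratio of 1.08 (1.02 to 1.14). Hspa1b had 711 (683 to 740) and 611 (578 to 646), a ratio of 0.860 (0.803 to 0.921). Their sum was 1603 and 1572, with a ratio of 0.980 (0.939 to 1.02), so that the opposite directions of these genes cancelled in the sum. In the clusters that both libraries filled, Hspa1b had the other direction, at 635 and 814 (1.28, 1.17 to 1.40), and Hspa1a a ratio of 1.35 (1.25 to 1.45).

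The partners of HSP70 moved apart in EC-like cells. Dnajb1 (chr8:83608193-83612653), the inducible J protein that hands clients to HSP70, had 212 CPM in normoxia (197 to 228) and 137 in hypoxia (121 to 154), with a ratio of 0.645 (0.560 to 0.741). Hsph1 (chr5:149614287-149636376), an HSP110 protein that exchanges the nucleotide of HSP70, had 38.5 (32.3 to 45.7) and 73.9 (62.6 to 86.7), a ratio of 1.92 (1.51 to 2.44). Dnajb1 had the lowest and Hsph1 the highest ratio of the 10 members. In the clusters that both libraries filled, Dnajb1 had 158 and 171, a ratio of 1.08 (0.895 to 1.31), and Hsph1 a ratio of 2.34 (1.66 to 3.28).

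Hspb1 (chr5:135887919-135889563), a small heat shock protein that also binds actin filaments, had 925 CPM in normoxia (893 to 957) and 1118 in hypoxia (1073 to 1165), with a ratio of 1.21 (1.15 to 1.28). Hsp90aa1 (chr12:110690605-110702728), the inducible HSP90, had 441 (419 to 464) and 566 (534 to 600), a ratio of 1.28 (1.19 to 1.39). Both were higher in the hypoxia library. Hspa5 (chr2:34771970-34777547), also called BiP, had 620 (594 to 647) and 638 (604 to 674), and its ratio of 1.03 (0.961 to 1.10) had an interval that included 1. In the clusters that both libraries filled, the ratio was 1.70 (1.60 to 1.81) for Hspb1, 1.28 (1.14 to 1.43) for Hsp90aa1 and 1.30 (1.18 to 1.43) for Hspa5.

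Summed over the 6 inducible members, EC-like cells had 3219 CPM in normoxia and 3467 in hypoxia, with a ratio of 1.08 (1.05 to 1.11). The inducible sum was thus 0.918 of the constitutive sum in normoxia and 0.627 in hypoxia. Without Hspb1 and Hsp90aa1, the remaining inducible members summed to 1854 and 1782 CPM, a ratio of 0.962 (0.923 to 1.00). The ratio of the inducible sum was 0.860 when each of the same cells was given equal weight. It was 0.879 without the aerocyte cluster and 1.44 (1.39 to 1.5) over the clusters that both libraries filled. Its direction thus turned with the weighting and with the cells counted. The ratio of the constitutive sum lay between 1.48 and 1.77 in all 19 alternatives.

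**Figure D1:**
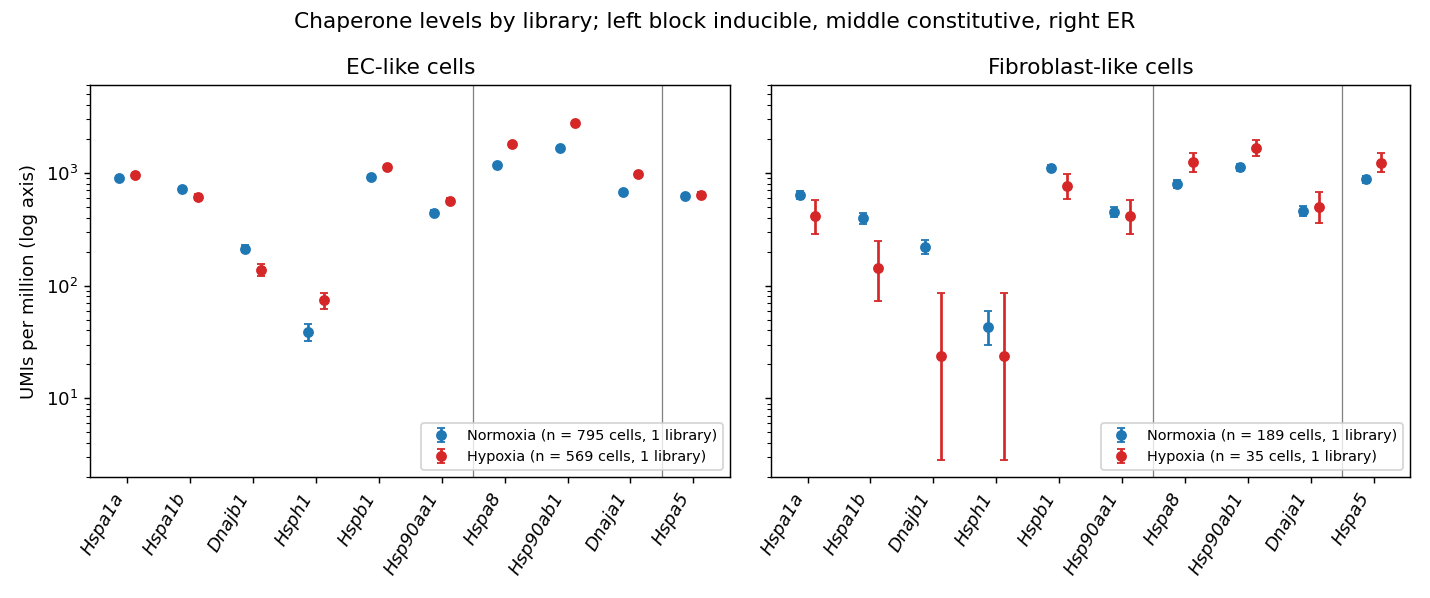
Levels of the 10 members in EC-like cells (left) and fibroblast-like cells (right), in CPM on a log axis, with normoxia in blue and hypoxia in red, 1 library each, and exact Poisson 95% intervals as bars. In EC-like cells the constitutive members Hspa8, Hsp90ab1 and Dnaja1 lie higher in hypoxia, Dnajb1 lies lower, and Hspa5 overlaps.

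Of the 8690 genes with at least 50 UMIs over both libraries in EC-like cells, 8.11% were at least 1.5-fold higher and 9.84% at least 1.5-fold lower in the hypoxia library. Of the 10 members, 3 were past 1.5-fold upward (Hsph1, Hspa8 and Hsp90ab1) and 1 downward (Dnajb1). The members' median ratio was 1.25, beside 1.02 over all these genes. The members were named with these ratios known, so the counts describe them only.

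The wider folding network in EC-like cells was read from further gene lists, which were drawn up with earlier results of these data known. Among 14 heat shock factors and their co-induced genes, 5 were at least 1.5-fold higher in hypoxia and 1 was lower, with a median ratio of 1.26. Hspd1 and Hspe1, the mitochondrial chaperonin and its lid, went from 99.8 to 166 and from 109 to 188 CPM, with ratios of 1.67 and 1.72. Serpinh1, the collagen chaperone, went from 233 to 395 (1.70) and Cacybp from 81.7 to 165 (2.02). Hspa4l was also past 1.5-fold upward (1.71, 1.36 to 2.15), but not every other gene of this list rose. Dnajb4 went from 70.2 to 47.2 (0.672, 0.526 to 0.854), and Hsf2 and Dnaja4 had ratios of 1.01 and 1.03.

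HSP90 cochaperones and ER chaperones also lay above the median gene in EC-like cells. Of 8 measured genes of the HSP90 family and its cochaperones, 2 were past 1.5-fold upward and 0 downward, among them Stip1, which links HSP70 to HSP90, from 49.5 to 94.9 CPM (1.92). Of 13 genes of ER folding and the unfolded protein response, 5 were past 1.5-fold upward and 1 downward, with a median ratio of 1.40. Calr, a lectin chaperone of the ER, went from 513 to 833 (1.62) and Manf from 175 to 306 (1.75), while Atf4, a transcription factor of the stress response, went from 288 to 189 (0.656). Hspa5 itself had a ratio of 1.03 beside these, and of 1.30 (1.18 to 1.43) in the clusters that both libraries filled. Ratios in those clusters were not computed for the genes of the further lists, so theirs describe the whole class only. The 7 subunits of the cytosolic chaperonin TRiC had ratios of 1.15 to 1.52, and 1 was past 1.5-fold. Their median ratio was 1.29, beside 1.02 over all measured genes. Of 8 other J proteins 1 was past 1.5-fold upward and 0 downward, with a median ratio of 1.09, and of 7 other HSP70 and HSP110 genes 2 were upward and 1 downward, with a median of 1.01.

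Immediate-early genes were far lower in the hypoxia library. Over EC-like cells the listed ones summed to 22410 CPM in normoxia and 7017 in hypoxia, and 15 of 15 measured genes of the list were past 1.5-fold downward. Cells with at least 10000 immediate-early CPM made up 453 of 795 EC-like cells in normoxia (57.0%, interval 53.5 to 60.5) and 79 of 569 in hypoxia (13.9%, 11.1 to 17.0). The inducible members were higher at or above that mark. In normoxia their sum was 1413 CPM in the 342 EC-like cells below it and 4407 in the 453 at or above it. In hypoxia it was 2426 in 490 cells and 8410 in 79. The normoxia cells were also brought to equal depth and grouped by immediate-early level (255, 261 and 247 cells). With 3125, 16686 and 45587 immediate-early CPM, these groups had inducible sums of 1114, 4437 and 4028. The sum thus rose no further in the highest group. Hypoxia groups with 1188, 3449 and 15095 had 1723, 2000 and 5162. Over single cells at equal depth, Pearson's r was 0.19 in normoxia and 0.40 in hypoxia.

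Within either range of immediate-early level the inducible members were higher in hypoxia. Below the mark their ratio was 1.72 (1.63 to 1.81), and at or above it 1.91 (1.83 to 1.99), although over all EC-like cells it was 1.08. The constitutive ratio was 1.77 (1.71 to 1.84) below and 1.51 (1.43 to 1.58) above. The part that tissue handling has in the inducible levels was not tested. The mark was set after the data had been seen.

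The pair Hspa1a and Hspa1b showed the same in both ranges. Hspa1a went from 294 to 589 CPM below the mark (2.01) and from 1285 to 2723 above it (2.12), and Hspa1b from 260 to 400 (1.54) and from 1008 to 1616 (1.60). Dnajb1, lower in hypoxia over all EC-like cells, went from 37.7 to 89.5 below the mark, a ratio of 2.37 (1.72 to 3.32), and had a ratio of 1.10 (0.908 to 1.33) above it. Its direction over all cells was thus not that of the low range.

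Hspb1 went from 511 to 721 CPM below the mark (1.41) and from 1197 to 3005 above it, a ratio of 2.51 (2.34 to 2.70). Hspa5 went from 494 to 592 below, a ratio of 1.20 (1.09 to 1.32), and from 703 to 856 above, 1.22 (1.07 to 1.38). Hspa8 had ratios of 1.93 and 1.61, Hsp90ab1 of 1.70 and 1.49, and Dnaja1 of 1.72 and 1.36. Over EC-like cells every member thus had a ratio above 1 in both ranges, with an interval that reached 1 for Dnajb1, Hsph1 and Hsp90aa1 at or above the mark. The share of all genes with a ratio above 1 in these ranges was not counted, so this describes the members only. Subclasses could differ from the class. In general capillary cells at or above the mark (361 and 55), Dnajb1 had 343 and 264 CPM, a ratio of 0.768 (0.583 to 0.998). Their inducible ratio was 1.54 and their Hspb1 ratio 1.68.

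**Figure D2:**
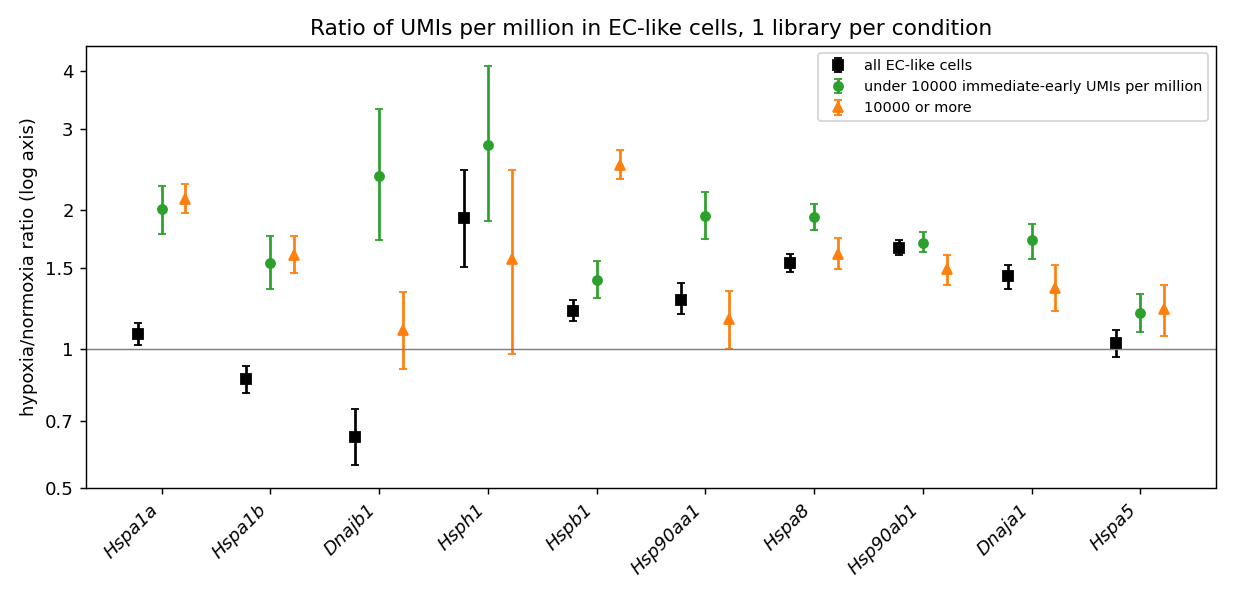
Hypoxia over normoxia ratio of the level of each member on a log axis, over all EC-like cells (black squares) and in EC-like cells under (green circles) and at or over (orange triangles) 10000 immediate-early UMIs per 1000000, from 1 library per condition, with exact conditional binomial 95% intervals and a line at 1. Over all cells the ratios run from 0.645 (Dnajb1) to 1.92 (Hsph1). Within each range every point lies above 1, and the share of all genes above 1 there was not counted.

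EC-like cells were divided by their subclass markers into aerocytes (100 normoxia and 39 hypoxia cells), the thin capillary cells over which gas is exchanged, general capillary cells (596 and 294), arterial cells (22 and 17) and venous cells (56 and 22). This left 21 normoxia and 197 hypoxia EC-like cells without a subclass. Aerocyte, arterial and venous cells were 1 cluster each. The ratio of the inducible sum ran from 0.486 to 2.08 over these subclasses and that of the constitutive sum from 1.09 to 1.61. In aerocyte-like cells the inducible sum went from 3601 to 7480 CPM, a ratio of 2.08 (1.96 to 2.20), and without the cell with most inducible UMIs in each library from 3394 to 6808. In general capillary cells it was 3039 and 3014, a ratio of 0.992 (0.954 to 1.03). There the libraries filled different clusters, with 179 of 294 hypoxia cells but 5 of 596 normoxia cells in the Ntrk2-led one. Over the 3 general capillary clusters that both filled (378 and 108 cells), the inducible sum was 2699 and 3890, a ratio of 1.44 (1.35 to 1.54), and the constitutive ratio was 1.44 (1.35 to 1.53). Arterial cells had 2360 and 3229, a ratio of 1.37 (1.16 to 1.62), and venous cells 4219 and 2050, a ratio of 0.486 (0.416 to 0.565). In arterial cells 1 hypoxia cell held 27.2% of these UMIs, and the median cell went down, from 1412 to 1056 CPM. In venous cells 1 normoxia cell held 15.7%, and the median cell had 1880 and 1684. Without such a cell in each library the sums were 2093 and 2739 in arterial cells and 3634 and 1966 in venous cells. The difference between the subclass ratios was not tested, since each subclass was seen in 1 library per condition.

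The constitutive sum had a ratio above 1 in each of the 4 subclasses. It was 1.57 (1.48 to 1.67) in aerocytes, 1.61 (1.56 to 1.67) in general capillary cells, 1.23 (1.10 to 1.39) in venous cells and 1.09 (0.943 to 1.25) in arterial cells, where the interval included 1. The inducible sum as a share of the constitutive sum went from 0.930 to 1.23 in aerocytes, from 0.892 to 0.548 in general capillary cells, from 1.26 to 0.496 in venous cells and from 0.630 to 0.793 in arterial cells.

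Hspb1 set aerocyte-like cells apart from general capillary cells in both libraries. It had 1934 CPM in normoxia and 3995 in hypoxia in aerocytes, with a ratio of 2.07 (1.91 to 2.23), and 616 and 645 in general capillary cells, 1.05 (0.960 to 1.14). A UMI of Hspb1 was found in 95 of 100 aerocytes in normoxia and 38 of 39 in hypoxia, and in 1 of 19 cells (5.26%, 0.133 to 26.0) of the leukocyte cluster. Hspa1a and Hspa1b were also higher in aerocytes of the hypoxia library, from 718 to 1560 (2.17, 1.91 to 2.47) and from 444 to 1044 (2.35, 2.00 to 2.76). Hspa5 had 444 and 522 there, with a ratio of 1.18 (0.966 to 1.43).

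In venous-like cells Hspa1a, Hspa1b and Hspb1 were lower in hypoxia. Hspa1a went from 1170 to 421 CPM (0.359, 0.253 to 0.499), Hspa1b from 1000 to 294 (0.294, 0.192 to 0.434) and Hspb1 from 1167 to 526 (0.450, 0.328 to 0.606). Dnajb1, at 271 and 284, had a ratio of 1.05 (0.654 to 1.63). The ratios of Hsph1 (1.45, 0.617 to 3.17) and Hsp90aa1 (0.782, 0.540 to 1.11) had intervals that included 1. Hspa5 was 582 in normoxia and 1251 in hypoxia in these cells, with a ratio of 2.15 (1.69 to 2.72) and the highest of the 4 subclasses.

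Immediate-early levels were lower in hypoxia in each subclass. They went from 14296 to 8402 CPM in aerocytes, from 23909 to 7583 in general capillary cells, from 31474 to 9905 in venous cells and from 19380 to 4797 in arterial cells. In cells below 10000 immediate-early CPM, the inducible ratio was 2.16 (1.96 to 2.39) in aerocytes, 1.81 (1.68 to 1.95) in general capillary cells and 1.41 (1.09 to 1.83) in venous cells, the last from 20 and 16 cells. The venous direction was thus the opposite of that over all venous cells.

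**Figure D3:**
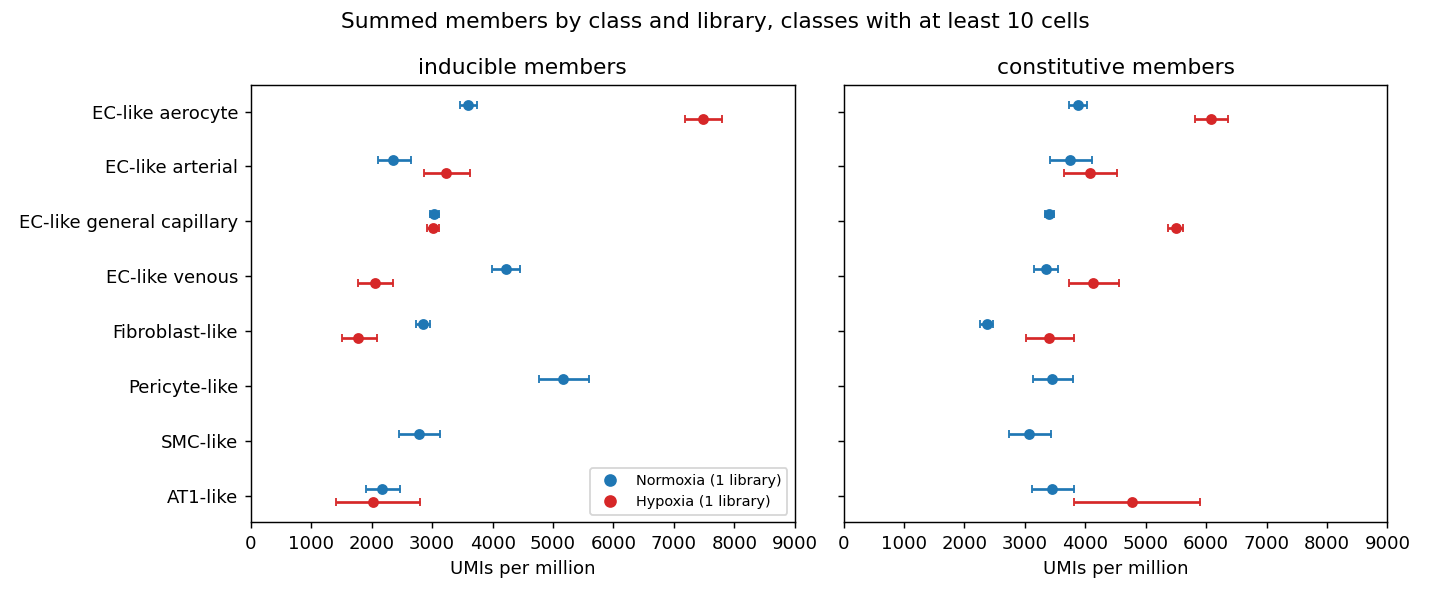
Summed inducible (left) and constitutive (right) members in CPM by class, with normoxia in blue and hypoxia in red, 1 library each, exact Poisson 95% intervals, and only classes of at least 10 cells in the library. Aerocytes in hypoxia lie highest for the inducible members at 7480, followed by pericyte-like cells in normoxia.

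Across EC-like clusters to which a library gave 10 or more cells, the inducible sum ranged from 898 to 5813 CPM over 10 clusters in normoxia and from 1331 to 7480 over 9 in hypoxia. The constitutive sum ranged from 1840 to 5390 and from 3522 to 6476. On the log2 scale, the inducible sum followed the immediate-early sum with Pearson's r of 0.83 in normoxia (Spearman's rho 0.76) and 0.75 in hypoxia (0.68). For the constitutive sum, r was 0.13 and -0.06. Hspa5 had r of 0.76 and 0.74. The clusters of a library share its depth and handling, and immediate-early genes helped to form them, so these values are descriptions.

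Both libraries gave 10 or more cells to 7 clusters. The constitutive ratio was above 1 in 7 of them, from 1.03 to 1.91, with an interval above 1 in 5. The inducible ratio was above 1 in 5 and below 1 in 2, from 0.486 to 2.08, and the intervals lay above 1 in 4 and below 1 in 1. Hspa8 was above 1 in 7 of 7 clusters and Hsp90ab1 in 6 of 7. Weighted within clusters, the inducible ratio was 1.51 and the constitutive ratio 1.48.

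**Figure D4:**
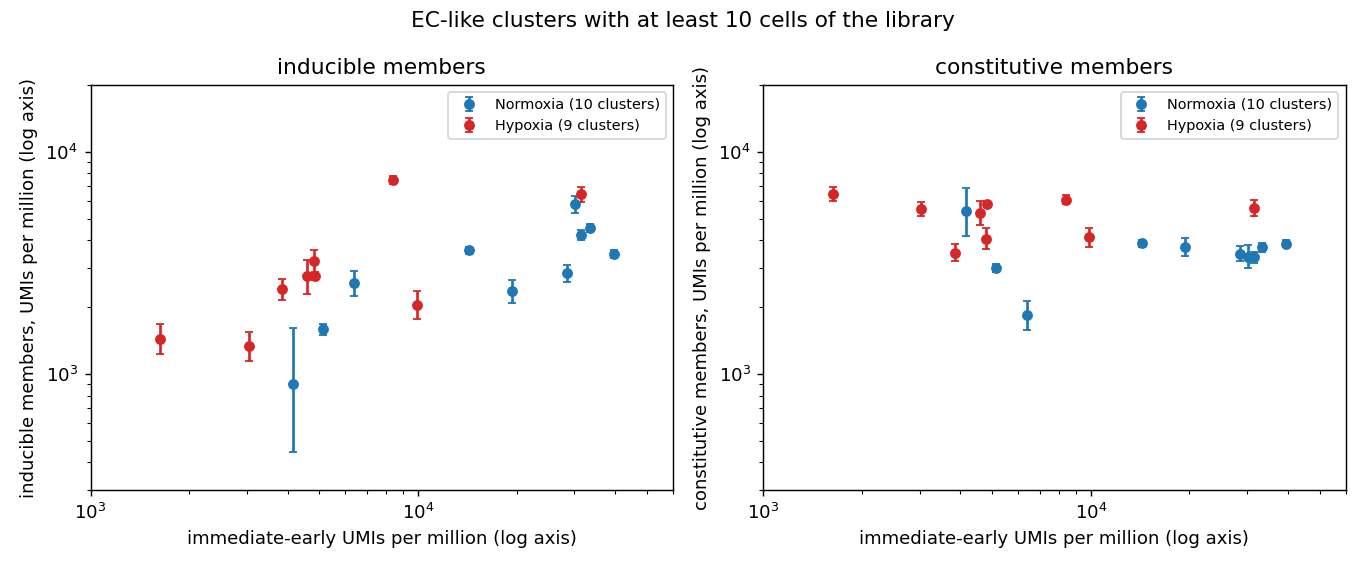
Inducible (left) and constitutive (right) members against immediate-early genes in EC-like clusters that hold 10 or more cells from the library, all in CPM on log axes, with normoxia in blue (10 clusters) and hypoxia in red (9 clusters) and exact Poisson 95% intervals. The inducible sum lies higher in clusters with more immediate-early UMIs (r of 0.83 and 0.75), and the constitutive sum (r of 0.13 and -0.06) lies between 3522 and 6476 in hypoxia.

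Of the inducible members, Hspa1a, Hspa1b and Hspb1 were unevenly spread over single cells. To compare cells of different depth, each EC-like cell was thinned to 1000 UMIs, which left 763 normoxia and 468 hypoxia cells. The 76 normoxia cells with most Hspa1a held 66.6% of its UMIs and the 47 such hypoxia cells 61.8%. For Hspb1 the shares were 55.1% and 62.4%. Hspa8 was spread more evenly, with 31.1% and 28.5%, as was Hsp90ab1, with 28.2% and 26.3%. The variance over the mean was 5.06 and 3.77 for Hspa1a and 1.14 and 1.28 for Hspa8, where counting alone gives a value near 1. It was 3.76 and 2.20 for Hspa1b and 3.10 and 4.21 for Hspb1. The other inducible members were nearer the constitutive ones, with 1.37 and 1.39 for Hsp90aa1, 1.43 and 1.17 for Dnajb1 and 1.10 and 1.17 for Hsph1. Hsp90ab1 had 1.21 and 1.65.

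Cells with at least 10 inducible UMIs per 1000 were 56 of 763 in normoxia (7.34%, 5.59 to 9.43) and 23 of 468 in hypoxia (4.91%, 3.14 to 7.28), with overlapping intervals. Among aerocytes they were 5 of 99 (5.05%) and 9 of 38 (23.7%, 11.4 to 40.2). Among venous cells they were 8 of 56 (14.3%) in normoxia and 0 of 22 in hypoxia, where 0 cells allow a share of up to 15.4%. For the constitutive members such cells were 12 of 763 (1.57%) and 36 of 468 (7.69%), and the median cell went from 3 to 5 constitutive UMIs per 1000 while it stayed at 2 for the inducible members.

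The share of cells with a UMI gave the same order for the constitutive members. After thinning, Hspa8 was found in 65.4% of normoxia and 76.3% of hypoxia EC-like cells, Hsp90ab1 in 74.6% and 85.5%, and Dnaja1 in 44.6% and 55.6%. Without thinning the shares were 90.6% and 88.9% for Hspa8, 93.1% and 93.7% for Hsp90ab1, and 83.3% and 76.6% for Dnaja1, with the hypoxia cells shallower. In thinned cells Hspa1a was found in 31.2% (27.9 to 34.6) and 34.2% (29.9 to 38.7), which overlap, and Dnajb1 in 19.4% and 10.9%. Unthinned, Hspa1a was found in 49.2% and 48.9% and Dnajb1 in 39.0% and 26.5%. In the leukocyte cluster, 15.8% of 19 normoxia cells had a Hspa1a UMI and 42.1% a Dnajb1 UMI, so that a Dnajb1 UMI was not particular to EC-like cells.

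The UMIs of Hspa1a and Hspa1b went together over single cells. Over thinned EC-like cells, Pearson's r between them was 0.62 in normoxia and 0.49 in hypoxia, beside 0.10 and 0.06 for Hspa8 and Hsp90ab1. Thinned counts of the latter vary little beyond counting, with a variance over the mean of 1.14 and 1.21 in normoxia. That limits how high their r can be, so these values do not tell whether the constitutive members go together. Among 1705 genes found in at least 10% of normoxia cells, the 5 most like the inducible sum, with the gene itself left out of it, were Hspa1a (r = 0.42), Hspa1b (0.38), Jund (0.34), Jun (0.33) and Junb (0.31). The 3 that are no members are transcription factors of the AP-1 family, of which Jun and Junb, but not Jund, were on the immediate-early list. For the constitutive sum, the values were at most 0.18, under the same limit. All of these cells share 1 library.

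**Figure D5:**
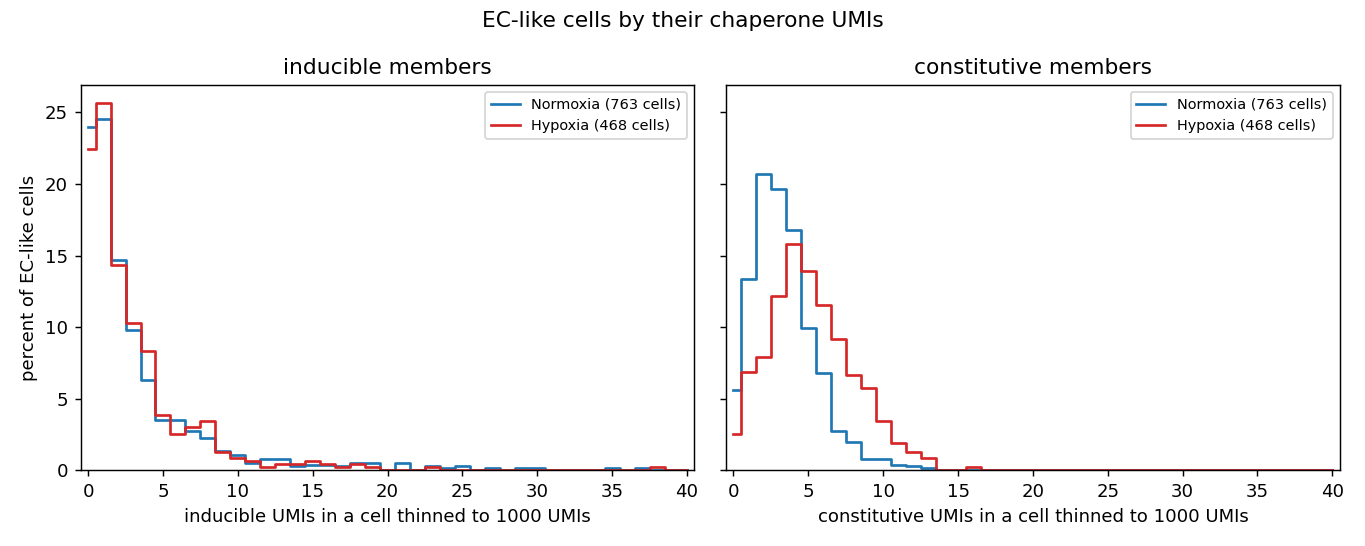
Inducible and constitutive UMIs per cell in EC-like cells thinned to 1000 UMIs, as the percent of 763 normoxia cells (blue) and 468 hypoxia cells (red). The constitutive members shift from a median of 3 to 5, and the inducible members keep a median of 2 with a tail up to 37 and 38 UMIs.

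In fibroblast-like cells the constitutive sum was higher and the inducible sum lower in the hypoxia library, from 35 hypoxia cells of which 30 lay in the Myh10-led cluster. Of the normoxia cells, 92 lay in that cluster and 83 in a Pdgfra-led one with 4 hypoxia cells. Hspa8 had 793 CPM in normoxia and 1244 in hypoxia, with a ratio of 1.57 (1.26 to 1.93), and Hsp90ab1 had 1114 and 1659, a ratio of 1.49 (1.24 to 1.78). Dnaja1, at 461 and 498, had a ratio of 1.08 (0.766 to 1.49). The constitutive sum went from 2368 to 3401, a ratio of 1.44 (1.26 to 1.63), and within the Myh10-led cluster from 2899 to 4090, a ratio of 1.41 (1.18 to 1.68).

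Hspa1a had 636 CPM in normoxia and 415 in hypoxia in these cells (0.652, 0.449 to 0.919), and Hspa1b 395 and 142 (0.360, 0.184 to 0.638). Hspb1 had 1105 and 758 (0.686, 0.524 to 0.885) and Dnajb1 221 and 23.7, the latter from 2 UMIs (0.107, 0.0129 to 0.394). Hsp90aa1, at 452 and 415, had a ratio of 0.917 (0.629 to 1.30). The inducible sum went from 2851 to 1778, a ratio of 0.623 (0.525 to 0.736), and 1 hypoxia cell held 30.0% of its UMIs there. Without the cell with most inducible UMIs in each library the ratio was 0.499. Within the Myh10-led cluster it was 0.767 (0.557 to 1.04), and there Hspa1a was higher in hypoxia, at 26.2 from 3 UMIs and 213 from 11 UMIs (8.14, 2.15 to 45.4), the opposite of the class as a whole. Hspb1 had 934 and 465 in that cluster (0.498, 0.306 to 0.781), lower as in the class.

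Hspa5 had 874 and 1232 CPM in fibroblast-like cells, a ratio of 1.41 (1.14 to 1.73), and 402 and 833 in the Myh10-led cluster (2.08, 1.34 to 3.22). Of 3162 genes with at least 50 UMIs in the class, 17.7% were at least 1.5-fold higher and 31.7% at least 1.5-fold lower in hypoxia. Of 9 members with that many UMIs, 1 was past 1.5-fold upward (Hspa8) and 3 downward (Hspa1a, Hspa1b and Dnajb1), and their median ratio of 0.917 equalled that of all genes.

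Other signals moved with the fibroblast-like values. The 12 EC markers summed to 522 CPM in normoxia and 2702 in hypoxia, with UMIs of all 12 in both libraries, while fibroblast markers were 31956 and 30313. Immediate-early genes went from 23033 to 2702. Over the 658 genes that reached 20 UMIs in each library the median ratio was 1.36, or 0.45 on the log2 scale. Scaled to that median the constitutive ratio was 1.05 and the inducible ratio 0.457. With 820641 normoxia and 84387 hypoxia UMIs in the class, that limit favours genes with more UMIs in hypoxia. Over the 3162 genes with at least 50 UMIs over both libraries the median was 0.917, so the scaled values depend on the genes counted. With cells called from marker UMIs alone, which left 96 and 8 cells, the constitutive ratio was 1.05 and the inducible ratio 0.383. In cells with at least 10000 immediate-early CPM, 65 in normoxia and 4 in hypoxia, the directions turned, with 1.34 for the inducible and 0.808 for the constitutive sum. The part of EC RNA in the fibroblast-like values was not tested.

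Between classes of the normoxia library, fibroblast-like cells had 0.886 (0.847 to 0.926) of the inducible and 0.675 (0.643 to 0.708) of the constitutive level of EC-like cells. Hspa5, which folds secreted proteins among others, was higher in fibroblast-like cells, at 1.41 times the EC-like level (1.29 to 1.53) in normoxia and 1.93 times (1.57 to 2.36) in hypoxia. The fibroblast-like over EC-like ratio of the inducible sum in normoxia was 1.09 (0.993 to 1.20) in cells below 10000 immediate-early CPM, with an interval that included 1. It was 0.870 (0.827 to 0.915) at or above that mark.

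Pericyte-like cells, 22 in normoxia, had the highest levels of the inducible HSP70 pair among the normoxia classes of at least 10 cells. Hspa1a was 2699 CPM (2414 to 3009), 3.03 times the EC-like level (2.69 to 3.39), and Hspa1b was 1586 (1369 to 1828), 2.23 times. The sum of this pair was 4286 and, without the cell with most of it, 3845, and 21 of 22 cells (95.5%) had a Hspa1a UMI. Single EC-like clusters could come near this. The Milr1-led one, 47 normoxia cells, had Hspa1a at 1800 and Hspa1b at 2107, the latter above the pericyte-like level. Hspb1 was low in pericyte-like cells, at 125 (69.7 to 205), 0.135 of the EC-like level (0.0753 to 0.223). An unnamed cluster led by Ndufa4l2, 27 cells in normoxia, shared leading genes such as Cox4i2 and Postn with the pericyte-like cells. It had Hspa1a at 982 CPM, 1.10 times the EC-like level (0.864 to 1.38), and Hspa1b at 432, 0.608 times. Hspb1 was 616 in that cluster, 0.666 of the EC-like level, so these traits of the pericyte-like cells were not seen there. By the rule used for naming clusters, 11 of 12 EC markers were also present in it. With these EC markers present, the cluster cannot show whether other pericytes lack the traits. The single pericyte-like cell in hypoxia does not allow a comparison between libraries.

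AT1-like cells had the highest level of Hsp90aa1 among the normoxia classes of at least 10 cells. It was 1179 CPM (986 to 1398) in 46 normoxia cells, 2.67 times the EC-like level (2.22 to 3.19), and 1291 (819 to 1937) in 12 hypoxia cells, 2.28 times. The 7 alveolar type 2 (AT2)-like cells had more, at 2044 CPM, 4.64 times the EC-like level (3.81 to 5.59), with a Hsp90aa1 UMI in 3 of them. Hspa1a was 179 (109 to 276) in AT1-like cells, 0.200 of the EC-like level. In the leukocyte cluster the inducible sum was 619, or 0.192 of the EC-like level, and Hspb1 was 7.11 from 1 UMI, while Dnaja1 was 1017 (857 to 1198). Smooth muscle (SMC)-like cells, 16 in normoxia, had an inducible sum of 2775. Platelet-like cells, 18 in normoxia, had 1568, of which 1 cell held 66.1%.

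Barcodes with a larger mitochondrial share had a lower inducible sum in normoxia, over all classes. It was 3521 CPM in 548 cells with up to 2.5% mitochondrial UMIs, 2505 from 2.5 to 5%, 1621 from 5 to 10% and 1154 from 10 to 20%. In hypoxia it was 3474, 2487 and 1286 in the first 3 ranges and 1806 from 10 to 20%, the last from 14 cells. Immediate-early levels went the same way, from 26768 to 7101 CPM over these ranges in normoxia and from 7038 to 1677 in hypoxia, as did depth, from a median of 4138 to 966 UMIs in normoxia. Their part in the inducible values was not tested. The constitutive sum went from 3470 to 3180, 2904 and 2322 in normoxia and was 5541, 5006, 5243 and 3419 in hypoxia, higher than normoxia in each of the 4 ranges.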

How the data were processed

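The authors made the deposited matrices of raw UMI counts per gene and barcode with Cell Ranger (6.1.2 per the file headers, another version in the methods text) against mm10, from 10x 3′ v3.1 libraries, filtered to cells and not normalized. Each condition has 1 library of 7630683 (normoxia) or 2685345 (hypoxia) UMIs, so 3 counts correspond to 0.580 and 1.31 CPM over the kept cells.

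From the counts, barcodes outside 200 to 4000 genes or above 5% of UMIs from mitochondria were dropped. Counts scaled to 10000 per cell and logged gave 2000 variable genes per library, without the members and the listed chaperones, and then 30 principal components, 15 neighbours and Leiden clusters at resolution 2 (27 clusters; python 3.11.15, pandas 2.3.3, scipy 1.17.1, numpy 2.4.6, scanpy 1.11.5, anndata 0.12.19, igraph 0.11.9; plots by matplotlib 3.10.9). There was no batch correction. Clusters were named "X-like" from markers seen in at least 25% of cells, and 5 clusters (300 cells) stayed unnamed, so a class need not match the study's cluster of that name. EC subclasses needed at least 5 of 6 markers, a limit set after the data had been seen. Doublets were limited by the gene limit alone, since Scrublet called 3 of 1348 and 0 of 689 cells and is not taken to have worked.

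Levels have exact Poisson, ratios exact conditional binomial and shares Clopper-Pearson intervals at 95%. With 1 library per condition no p-value is given. A gene counted as past 1.5-fold with at least 50 UMIs over both libraries. The intervals were tried only on simulated counts that vary by counting alone. That trial does not cover the wider spread of real cells. The variance over the mean of the inducible sum was 6.94 in normoxia and 5.03 in hypoxia, in EC-like cells thinned to 1000 UMIs. The members and lists were chosen with earlier results of these data known. Genes named are the members, at most 4 per further list (most UMIs, largest and smallest ratio) beside genes named after their values were seen, and the 5 most like each sum. Positions are from GENCODE M21 and promoters from RefSeq, both on GRCm38. No promoter of Hspa8, Hsp90aa1 or Hsp90ab1 was used here. Alternatives changed the gene and mitochondrial limits, clustering, class calls, doublets, scaling and weighting. The values of 1 gene of a further list are not reported here.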

Additional observations from a re-analysis of the deposited data

Results flagged for a closer look

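Effects between classes that went opposite ways were singled out, and none of these differences was tested, since each class was seen in 1 library per condition. The inducible members were higher in hypoxia in aerocyte-like cells (ratio 2.08) and lower in venous-like cells (0.486). Over EC-like cells their ratio was 1.08 and over fibroblast-like cells 0.623. Hspb1 had 1.21 in EC-like and 0.686 in fibroblast-like cells, and Hspa1a had 1.08 and 0.652. Within the 1 fibroblast-like cluster that both libraries filled, the Hspa1a ratio was 8.14 (2.15 to 45.4), from 3 and 11 UMIs.

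Barcodes left out for their mitochondrial share also held chaperone transcripts. In hypoxia, the 90 barcodes with 5 to 10% mitochondrial UMIs had 5243 constitutive CPM, beside 2904 in the 668 such barcodes in normoxia.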

How the results depend on the processing

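No paired analysis was possible because a condition is a single library here, with no replicate number to share. The constitutive ratio in EC-like cells (1.58) stayed between 1.48 and 1.77, whereas the inducible ratio (1.08) ranged from 0.860 to 1.91 and was above 1 in 17 of 19 alternatives. With cells weighted equally the EC-like ratios were 0.860 (inducible), 0.830 (Hspa1a), 0.963 (Hspb1) and 0.950 (Hspa5), and the fibroblast-like over EC-like ratios were 0.742 (inducible) and 0.751 (constitutive). The inducible EC-like ratio was 1.14 with up to 6000 genes or with Dnaja1 counted as inducible, 1.18 with up to 10% mitochondrial UMIs, 1.21 with no such limit, and 1.12 with classes from marker UMIs. For the inducible fibroblast-like over EC-like ratio these gave 0.846 (6000 genes), 0.940 (no mitochondrial limit) and 0.964 (marker UMIs). In fibroblast-like cells the inducible ratio was 0.793 with 6000 genes and 0.383 with marker UMIs, where the constitutive one was 1.05. Scaled to the median of genes with at least 20 UMIs in each library, the inducible and constitutive ratios were 1.03 and 1.51 in EC-like cells. In fibroblast-like cells they were 0.457 and 1.05. There that median was 1.36, beside 0.917 over genes with at least 50 UMIs over both libraries. Weighted within clusters, the EC-like ratios were 1.51 and 1.48, with 1.36 for Hspa5.

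The following were chosen after seeing the data. Without the cell with most inducible UMIs the fibroblast-like inducible ratio was 0.499, and without the aerocyte cluster the EC-like one was 0.879. Over clusters with 10 or more cells from both libraries, the EC-like ratios were 1.44 (inducible), 1.5 (constitutive) and 1.30 (Hspa5), and the fibroblast-like inducible ratio was 0.767. Below 10000 immediate-early CPM the EC-like ratios were 1.72 (inducible), 1.77 (constitutive) and 1.20 (Hspa5), the fibroblast-like inducible ratio was 0.767, and the class ratios were 1.09 (inducible) and 0.731 (constitutive). At or above that mark the EC-like ratios were 1.91, 1.51 and 1.22, and the fibroblast-like ones 1.34 (inducible) and 0.808 (constitutive), from 4 hypoxia cells. Of 177 recomputed values, 7 turned direction, 60 moved past their counting interval and 110 did neither. A turn was counted only where the interval of the main value excluded 1. The EC-like Hspa5 ratio, whose interval included 1, was thus not counted, though it was below 1 in 3 of 18 alternatives. The values that moved include the shares of cells with a UMI, which thinning lowers. The cause was not tested. Depth limits the fibroblast-like hypoxia values, with 35 cells and 2 UMIs of Dnajb1, and those of the smaller hypoxia classes (22 venous, 17 arterial and 12 AT1-like cells).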

Other observations

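Some chaperones that are no members had large ratios in EC-like cells. Cryab, a small heat shock protein of muscle and lens, was the 1 gene of 5 further small heat shock proteins with at least 50 UMIs and had a hypoxia over normoxia ratio of 1.87. Hspa12b, an endothelial HSP70 relative, went from 102 to 182 CPM (1.79), while Hspa2, best known from the testis, had a ratio of 0.286. Creld2, Sdf2l1 and Dnajb11, targets or parts of the ER folding response, had ratios of 1.92, 1.73 and 1.51, while Ddit3, which acts late in ER stress, had 0.687. These genes were chosen after their values were seen.

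Unnamed cells led by AW112010, 23 in each library, had 1325 Hspb1 CPM in normoxia and 2283 in hypoxia.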
